A study of Mus musculus with 4 samples.

Results

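Regulators of G-protein signalling (RGS proteins) are encoded by a gene family, Rgs, and 10 of its members were examined in mouse retinal organoids: Rgs2, Rgs3, Rgs4, Rgs5, Rgs8, Rgs10, Rgs12, Rgs16, Rgs17 and Rgs19. They were taken by symbol from a table of 55426 gene rows, which lists 21 Rgs genes in all. The members were chosen with the doxycycline comparison in view, and Rgs2 was picked out for its steady difference between the groups. Their differences between the groups are therefore given as a description, with no test.

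In retinal organoids, clumps of pluripotent stem cells are steered in culture towards retinal progenitor cells. All 4 libraries were poly(A) RNA from day 6 organoids of 1 line labelled Rx:GFP Mettl3 KO, which carries a Dox-inducible HA-METTL3 (METTL3 is the enzyme that writes N6-methyladenosine, m6A, on RNA). The 2 untreated libraries therefore carry the deletion and the inducible copy too, and both groups were grown with 5% KSR and 0.1 µM AGN. The 2 Dox libraries received doxycycline (Dox) at 2 µg/ml for 6 days. EV, which stands in the title of each library, is not spelled out, and the labels do not say whether the line is 1 clone. The duplicates of a group went through separate rounds of library making and sequencing, per the labels. Nothing in the labels says that the 2 libraries of a group came from separate cultures, so the p-values below measure a spread that may be technical.

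RGS proteins shorten signals from G-protein-coupled receptors. An activated receptor loads GTP onto a G alpha subunit, and the RGS domain speeds the hydrolysis of that GTP, which returns the subunit to its inactive state. The family is divided by sequence into the small R4 proteins, the RZ proteins, the R12 proteins with additional domains in their long forms, and the R7 proteins, which pair with G beta 5 and act in photoreceptors and neurons.

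Levels are in FPKM, fragment counts scaled to transcript length and library depth, and can be compared between genes. Fitted depth was 31900000 to 34800000 fragments per library. Among the 13931 genes that averaged 1 FPKM or more over the 4 libraries, 1297 passed an adjusted p of 0.05 between Dox and untreated in limma (9.31% of those tested, 4.44% higher and 4.87% lower). Mettl3 itself read 40.33 and 37.98 FPKM without Dox, then 45.2 and 46.37 FPKM with it, which did not pass (adjusted p = 0.122 in limma). Its exons overlap Tox4 on the other strand. This gene-level value does not check the knockout or its rescue, since it cannot separate the deleted gene from the inducible copy. The retinal progenitor markers Rax, Six3, Six6, Lhx2 and Pax6 summed to 151 to 163 FPKM untreated and to 763 to 884 FPKM with Dox. Most of the untreated sum was Pax6, at 127.76 and 118.86 FPKM untreated and 122.8 and 130.69 FPKM with Dox, which did not pass. Of the other markers, Lhx2 stood at 26.72 and 24.3 FPKM without Dox, Six3 at 7.7 and 7.05 FPKM, Rax at 1.12 and 0.82 FPKM and Six6 at 0.01 FPKM in both libraries. Of these markers of the labelled tissue, Rax and Six6 were thus low or nearly absent without Dox, and the others were present.

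In each library the summed level of the 10 members was dominated by few genes. It was 90.5 and 85.7 FPKM in the untreated libraries and 152 and 155 FPKM in the Dox libraries. Rgs12, Rgs19 and Rgs3 held most of it without Dox. With Dox, Rgs2 alone made up 41.5% and 40.7% of the sum, against 6.58% and 6.30% without it. Without Rgs2 the sum was 84.5 and 80.3 FPKM untreated and 89.1 and 91.8 FPKM with Dox.

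**Figure D1:**
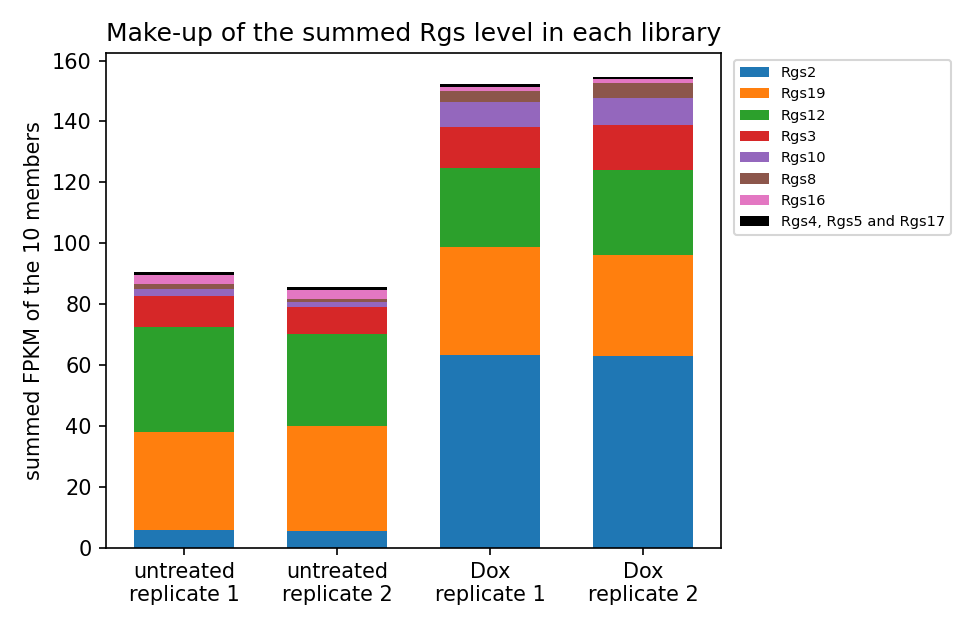
Stacked bars of FPKM summed over the 10 Rgs members (vertical axis, from 0) for each of the 4 libraries (horizontal axis), coloured by gene. The Rgs2 block makes up 6.58% and 6.30% of the untreated bars and 41.5% and 40.7% of the Dox bars.

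The order of the members differed between the groups at the top and in the middle. Without Dox it ran Rgs19 (33.3 FPKM), Rgs12 (32.3), Rgs3 (9.72), Rgs2 (5.68), Rgs16 (3.14), Rgs10 (1.90), Rgs8 (1.20), Rgs17 (0.640), Rgs4 (0.195) and Rgs5 (0.035). Rgs19 and Rgs12 overlapped between their libraries and cannot be ordered. The other neighbours did not overlap, although the highest Rgs8 library (1.53 FPKM) came close to the lowest Rgs10 library (1.61 FPKM). The lowest Rgs8 library (0.86 FPKM) likewise came close to the highest Rgs17 library (0.77 FPKM). With Dox the order was Rgs2 (63.1 FPKM), Rgs19 (34.4), Rgs12 (26.8), Rgs3 (14.2), Rgs10 (8.51), Rgs8 (4.19), Rgs16 (1.35), Rgs17 (0.850), Rgs4 (0.125) and Rgs5 (0.045), and no neighbours overlapped. With 2 libraries a group these are orders of the libraries at hand.

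**Figure D2:**
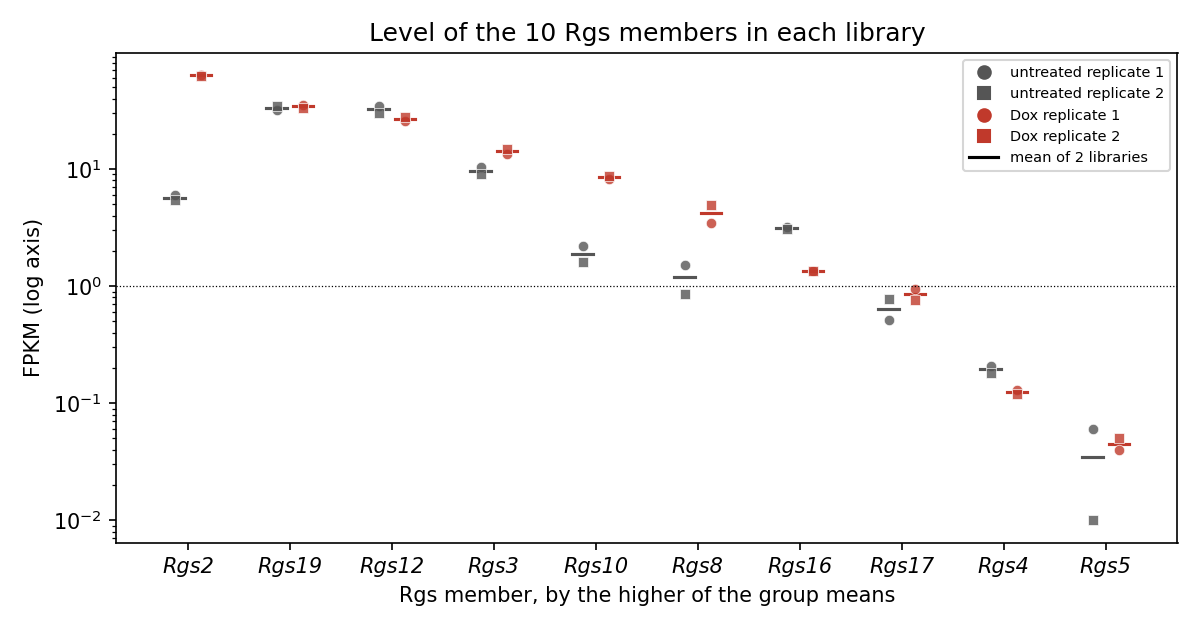
Level of each Rgs member in FPKM (vertical log axis) in the 4 libraries, with circles for replicate 1, squares for replicate 2 and short lines for the mean of 2 libraries; the dotted line marks 1 FPKM, the mean needed for a gene to enter the comparison across genes. Rgs2 lies at 5.4 to 5.95 FPKM untreated and at 62.93 to 63.25 FPKM with Dox, while Rgs19 overlaps between the groups.

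Of the 10 members, 7 reached a mean of 1 FPKM over the 4 libraries, and each of these 7 also had a mean above 1 FPKM in both groups taken singly. Rgs4, Rgs5 and Rgs17 stayed under it. The call rule used for all genes (adjusted p below 0.05 in limma) was met by 4 members upwards and 1 downwards, where 4.44% and 4.87% of all tested genes met it. Untreated and Dox libraries were fully separated for 4 of the 7 upwards and for 2 downwards, which held for 26.5% and 26.9% of all tested genes (53.4% in either direction). Since the members were chosen on this contrast, nothing is read from these counts.

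The R4 members come first. They are small proteins, little more than an RGS domain with a short amino-terminal helix, and several are switched on by signalling itself. Rgs2, known for its preference for Gq, lies on chromosome 1 (mm10, positions 143999338 to 144004161, minus strand). It read 5.95 and 5.4 FPKM without Dox and at 63.25 and 62.93 FPKM with it. The Dox libraries were nearly equal and both stood far above the untreated ones, at 63.1 ± 0.226 against 5.68 ± 0.389 FPKM (SD, n = 2 each), 11.1-fold higher. The log2 fold change of FPKM + 1 was 3.26 (SE 0.0788), the 27th highest among all tested genes. By fitted depth and its longest transcript, these levels correspond to about 534 and 523 fragments untreated and to 5607 and 5752 with Dox. Exons of Rgs2 overlap no other annotated gene.

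The 250 bases before the annotated start of Rgs2, from the RefSeq promoter table for GRCm38.p6 (the build also called mm10), are shown because Rgs2 has the largest log2 fold change of the members. Those of Rgs13, its neighbour in the family cluster described further on, follow for comparison. Capitals mark matches on either strand to TGACG (a core of the cAMP response element) or TAATTA (a homeodomain core). The Rgs2 window is chr1:144004150-144004399 and the Rgs13 window chr1:144177373-144177622, both on the minus strand.
Rgs2: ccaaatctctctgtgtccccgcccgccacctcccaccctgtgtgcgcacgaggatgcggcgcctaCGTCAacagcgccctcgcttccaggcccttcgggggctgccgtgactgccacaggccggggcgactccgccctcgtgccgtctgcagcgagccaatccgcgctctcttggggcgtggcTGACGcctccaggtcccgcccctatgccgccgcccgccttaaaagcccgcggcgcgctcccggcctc
Rgs13: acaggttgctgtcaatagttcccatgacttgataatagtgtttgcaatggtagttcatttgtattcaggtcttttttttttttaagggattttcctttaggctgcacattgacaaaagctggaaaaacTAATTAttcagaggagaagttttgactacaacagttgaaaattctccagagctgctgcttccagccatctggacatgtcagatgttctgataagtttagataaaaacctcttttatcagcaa
The windows differ in base composition, with 72.4% G and C for Rgs2 and 36% for Rgs13, where the median over all promoter windows was 52.4%. The Rgs2 window holds 2 matches to TGACG and 0 to TAATTA, and the Rgs13 window 0 and 1. A match to TGACG was found in 17.8% of all windows of this length and one to TAATTA in 4.84%. The remaining motif searched, GGAATG (a TEAD core, 12.6% of all windows), had 0 matches in both. Among the other members, Rgs4 also had 2 matches to TGACG, Rgs8 and Rgs12 each had a window with 1, and the rest had 0. G and C made up 72.4% of the Rgs17 window too, and 76.4% of the Rgs10 window. These traits are thus not particular to Rgs2.

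Rgs3, whose long forms carry further domains before the RGS domain, was at 10.38 and 9.05 FPKM untreated and at 13.49 and 14.86 FPKM with Dox. Both Dox libraries were higher, by 1.46-fold (log2 fold change 0.50, SE 0.104). Rgs8, a neuronal member first known for its effect on potassium channels gated by G proteins, was at 1.53 and 0.86 FPKM untreated and at 3.48 and 4.9 FPKM with Dox. Its Dox libraries were higher by 3.51-fold (log2 fold change 1.24, SE 0.213), and its replicates were the most scattered of the 7 members tested. Rgs16, an inducible regulator of Gi and Gq, differed the other way. It was at 3.17 and 3.1 FPKM untreated and at 1.34 and 1.35 FPKM with Dox, 2.33-fold lower (log2 fold change -0.82, SE 0.116). Both pairs of Rgs16 replicates were almost identical and the groups were well apart. Annotated exons of Rgs8, Rgs16 and Rgs12 each overlap an antisense gene (Gm29529, Gm28513 and Gm43791), and all 3 antisense genes were listed at 0 in every library.

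Rgs4 and Rgs5, which in other tissues mark neurons and pericytes, were barely detected. Rgs4 was at 0.21 and 0.18 FPKM untreated and at 0.13 and 0.12 FPKM with Dox, about 18.3, 16.9, 11.2 and 10.7 fragments. Rgs5 was at 0.06, 0.01, 0.04 and 0.05 FPKM in untreated replicates 1 and 2 and Dox replicates 1 and 2. For Rgs5 the level of 3 fragments is about 0.0236 FPKM, so no difference could be detected at this depth. The 6 pericyte and smooth muscle markers summed to 78.8 to 81.8 FPKM untreated and to 56.6 to 79.8 FPKM with Dox. Among them Kcnj8 and Abcc9 were at or below 0.06 FPKM in every library. Myh11 was at 0.08 to 0.13 FPKM and Cspg4 at 0.19 to 0.38 FPKM. Pdgfrb was at 0.64 and 0.46 FPKM untreated and at 0.99 and 1.03 FPKM with Dox. Acta2, also a gene of many contractile and cultured cells, was at 55.21 to 80.69 FPKM.

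The R12 members, Rgs10 and Rgs12, differed in opposite directions. Rgs10, one of the shortest RGS proteins and best known in microglia and neurons, was at 2.19 and 1.61 FPKM untreated and at 8.3 and 8.71 FPKM with Dox. Both Dox libraries were above both untreated ones, by 4.48-fold (log2 fold change 1.72, SE 0.135). Of the 7 microglia and blood markers 3 (Tyrobp, Hbb-bt and Hba-a1) were at 0 in all libraries and the 7 together summed to at most 0.18 FPKM in any library. Rgs12, a large scaffold protein with a PDZ domain and domains that bind Ras, was at 34.28 and 30.31 FPKM untreated and at 25.91 and 27.76 FPKM with Dox. The libraries did not overlap, and the Dox mean was 1.20-fold lower (log2 fold change -0.26, SE 0.0882). The summed level of the R12 genes overlapped between the groups, at 36.5 and 31.9 FPKM untreated and 34.2 and 36.5 FPKM with Dox.

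Both RZ members overlapped between the groups. Rgs19, also called GAIP, which acts on Gi subunits, was at 32.18 and 34.45 FPKM untreated and at 35.49 and 33.32 FPKM with Dox. The log2 fold change was 0.05 (SE 0.0749), and it turned to -0.0025 without untreated replicate 1. Rgs17, a relative that binds Gz, was at 0.51 and 0.77 FPKM untreated and at 0.94 and 0.76 FPKM with Dox, below the mean of 1 FPKM.

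As the study concerns m6A, the coding transcript of each member with the longest coding part (GENCODE M21) was searched for GGACT, the most common core of an m6A site. GGACT occurred 1.32 times per kb in Rgs2, where the median over 11629 tested genes with a coding transcript was 1.06 and 9.66% had none. Among the 7 members tested, Rgs10 had the highest density, at 3.41 per kb, above 98.5% of those genes, and Rgs2 the lowest. The Rgs10 value rests on 3 matches in a short transcript of 880 bases. Rgs19, which overlapped between the groups, had 2.80 per kb (above 96.5%) and Rgs3 2.57 (above 94.9%). Rgs12 had 1.49 per kb and Rgs8 1.38. Rgs16 had 1.71 per kb. These are matches in sequence, and whether any is methylated was not measured here. The 4 matches in Rgs2 begin at bases 631, 1155, 2162 and 2924 of its transcript, the first in the coding part and the other 3 in the 3' UTR. The 3 in Rgs10 all lie in its 3' UTR, at bases 639, 648 and 684. They are printed with 12 bases on either side and the core in capitals, to show the sequence context in the members with the highest and the next highest fold.
Rgs2 at 631: cgaattctaccaGGACTtatgtaaaaagc
Rgs2 at 1155: ttgacgttcttaGGACTacagatcattag
Rgs2 at 2162: acacaataatggGGACTtgagaattggaa
Rgs2 at 2924: ccccagggaagtGGACTctgatctcctac
Rgs10 at 639: aaggagagggatGGACTcttaggactgta
Rgs10 at 648: gatggactcttaGGACTgtacaggctgtc
Rgs10 at 684: tgttgtgtttgaGGACTggagtgtgctag

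Family genes outside the 10 members were mostly low. Of these 11 genes 4 reached a mean of 1 FPKM, and the other 7 had no value above 0.44 FPKM. Rgs1, Rgs18 and Rgs21 were listed at 0 in all 4 libraries. Rgs13, an R4 gene known from B cells and mast cells, was at 0.29 and 0.16 FPKM untreated and rose to 6.66 and 5.11 FPKM with Dox. Both Dox libraries were higher, 26.2-fold on the means (log2 fold change 2.48, SE 0.161, adjusted p = 7.33e-04 in limma), although Rgs13 reached the 1 FPKM mean only through its Dox libraries. Rgs20, an RZ gene, was at 1.56 and 1.49 FPKM untreated and at 2.44 and 2.4 FPKM with Dox (adjusted p = 0.0906 in limma). Its exons overlap Atp6v1h on the opposite strand, which was listed at 35.71 to 38.98 FPKM, and without strand in the counting, reads in the shared stretch cannot be told apart.

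The R7 genes, which serve rods, cones and bipolar cells in the mature retina, stood low. The 4 R7 genes together summed to 4.92 and 4.79 FPKM untreated and to 4.41 and 4.15 FPKM with Dox. Rgs11 was at 3.62 and 3.31 FPKM untreated and at 2.97 and 2.78 FPKM with Dox (adjusted p = 0.353 in limma). Its exons overlap Arhgdig on the opposite strand, which was listed at 15.39 to 23.41 FPKM. Here too, reads in the shared stretch cannot be told apart without strand in the counting. Arhgdig fell (log2 fold change -0.49, adjusted p = 0.0228 in limma), a call lost whichever library was left out. Rgs9, the photoreceptor member, was at 1.19, 1.04, 0.85 and 1.03 FPKM in the same order of libraries (adjusted p = 0.647). Its membrane anchor Rgs9bp was at 1.59 and 1.55 FPKM untreated and at 0.6 and 0.8 FPKM with Dox (log2 fold change -0.60, adjusted p = 0.0607). Rgs9bp reached the 1 FPKM mean only through its untreated libraries.

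Many Rgs genes sit side by side on chromosome 1, which carries 11 of the 21 and 5 of the members, and the levels of genes near them were compared. This was decided after the value of Rgs13 had been seen. Rgs13 (chr1:144138654-144177372) starts 173.2 kb from Rgs2. Within 500 kb of Rgs2 there were 8 protein-coding genes, counting Rgs2, and the other 4 tested besides Rgs13, namely Cdc73, Glrx2, Ro60 and Uchl5, did not pass the threshold. Their log2 fold changes were 0.13 to 0.22, with adjusted p-values of 0.282 to 0.41 in limma. In each of these 4, both Dox libraries lay above both untreated ones, which held for 26.5% of all tested genes. On the far side of Rgs13, Rgs1 was at 0 in all libraries.

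The next pair, Rgs8 and Rgs16, start 87.3 kb apart on the same strand and differed in opposite directions, as given above. Near them, Glul, the glutamine synthetase gene, 159.6 kb from the start of Rgs16, rose from 91.86 and 87.37 FPKM to 132.99 and 132.98 FPKM (log2 fold change 0.56, adjusted p = 0.00533 in limma), a call lost without untreated replicate 2 (adjusted p = 0.0676) and without Dox replicate 2 (0.0504). Rgs5 and Rgs4, 92.1 kb apart, were both nearly silent, although Uap1 and Nuf2 within the same 500 kb stood between 28.62 and 62.11 FPKM. Of the genes tested near them Ccdc190 fell (log2 fold change -0.77, adjusted p = 0.022 in limma). It reached the 1 FPKM mean only through its untreated libraries, and the call was lost whichever library was left out (adjusted p = 0.0721 to 0.101).

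**Figure D3:**
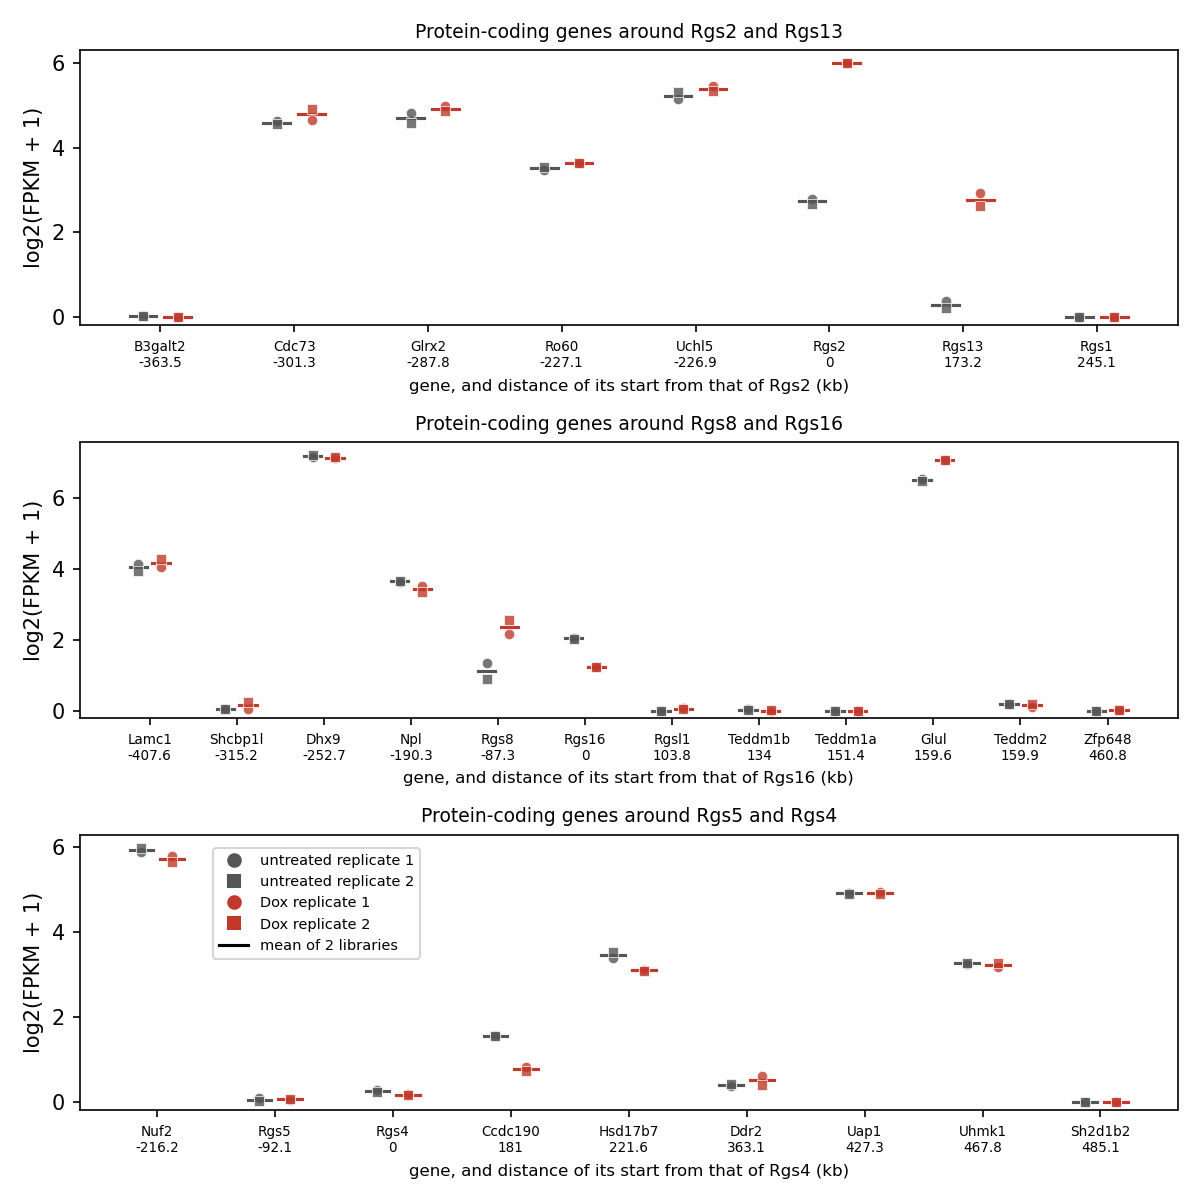
Levels as log2(FPKM + 1) (vertical axes) of the protein-coding genes reported within 500 kb of Rgs2, of Rgs16 and of Rgs4, in chromosome order, with the distance of each start in kb under the gene name; grey marks untreated and red Dox libraries, and short lines the mean of 2 libraries. Rgs2 and Rgs13 stand far apart between the groups. The log2 fold changes of the 4 other tested genes near them are 0.13 to 0.22, with both Dox libraries above both untreated ones.

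Other genes of G-protein signalling were taken from lists chosen by function: G alpha, beta and gamma subunits, other proteins with an RGS domain, other regulators, effectors, receptors and the remaining Rgs genes. Of 77 such genes tested, 5 rose and 7 fell in limma, 15.6% in all against the 9.31% of all tested genes. Their median log2 fold change was 0.04, and that of all tested genes -0.0042. The lists were made with earlier results of these data known, so nothing is read from the higher share. Of the called genes, Rgs13, Grk3 and Ednrb reached the 1 FPKM mean only through the group where they were higher. Calls fell in 6 of the 9 lists, and 6 of the 12 were among the 19 tested receptors.

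Among the G alpha subunits of all classes, Gnai1 was the only tested gene of 10 to pass. It encodes an inhibitory subunit and rose from 4.44 and 4.5 FPKM to 22.58 and 26.24 FPKM, 5.46-fold (log2 fold change 2.21, SE 0.102, adjusted p = 2.51e-04 in limma). The Gnai1 libraries of the groups were far apart. Its paralog Gnai2 was far more abundant, at 248.13 and 226.26 FPKM untreated and 190.27 and 212.35 FPKM with Dox, and did not pass (adjusted p = 0.187). Gnaq and Gna11, the Gq subunits, had log2 fold changes of -0.03 and 0.04. Gnas, the stimulatory subunit, was the most abundant, at 580.2 to 624.84 FPKM over the 4 libraries (adjusted p = 0.958), although its exons overlap the antisense gene Nespas.

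Of 13 tested G beta and gamma genes, Gng11 rose, from 2.14 and 2.53 FPKM to 6.15 and 4.89 FPKM (log2 fold change 0.96, adjusted p = 0.0141 in limma). Without Dox replicate 1 its log2 fold change was 0.82 with an adjusted p of 0.0817, without untreated replicate 1 it was 0.88 with 0.0829, and without untreated replicate 2 it was 1.05 with 0.0509. The most abundant of the group, Gnb1, did not pass (log2 fold change 0.13, adjusted p = 0.469).

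Among 14 tested genes of other RGS-domain proteins, 2 fell and 0 rose. Axin2, the Wnt feedback scaffold, was at 35.39 and 27.35 FPKM untreated and at 5.42 and 5.85 FPKM with Dox (log2 fold change -2.28, SE 0.136, adjusted p = 5.82e-04 in limma), while its paralog Axin1 had a log2 fold change of 0.04. The receptor kinase gene Grk3 went from 2.04 and 1.76 FPKM to 0.64 and 0.86 FPKM (log2 fold change -0.73, adjusted p = 0.0368), a call lost whichever library was left out, with adjusted p-values of 0.0921 to 0.133. Grk3 reached the 1 FPKM mean only through its untreated libraries. Of the 10 tested other regulators and arrestins, Ric8b, a chaperone of G alpha subunits, fell from 28.55 and 26.97 FPKM to 14.42 and 15.2 FPKM (log2 fold change -0.86, adjusted p = 0.0022). Nucb1, the most abundant of these, was at 57.13 and 48.32 FPKM untreated and at 59.65 and 66.3 FPKM with Dox (adjusted p = 0.217). Of the 6 tested effectors 0 passed in limma, and 4 had an unadjusted p under 0.05. Plcb3, the most abundant, had a log2 fold change of 0.38 (adjusted p = 0.121), and its exons overlap Ppp1r14b on the other strand.

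Receptors moved in both directions, with 2 higher and 4 lower of the 19 tested in limma. Lpar1, a receptor for lysophosphatidic acid, rose from 8.01 and 6.81 FPKM to 46.47 and 51.18 FPKM (log2 fold change 2.57, SE 0.102, adjusted p = 1.56e-04). Lpar4, another receptor for the same lipid, rose from 4.14 and 4.46 FPKM to 9.63 and 9.55 FPKM (adjusted p = 0.00278). Cxcr4, the chemokine receptor, fell from 49.25 and 52.32 FPKM to 4.51 and 3.53 FPKM (adjusted p = 1.11e-04). Ednrb, the endothelin B receptor of neural crest and glia, fell from 5.71 and 5.72 FPKM to 0.8 and 0.67 FPKM (adjusted p = 6.10e-04), and its mean was above 1 FPKM only without Dox. The thrombin receptor gene F2r, nearly as abundant as Lpar1 with Dox, did not pass (log2 fold change -0.10, adjusted p = 0.415). The other receptors that fell were F2rl1 and Ackr3, with log2 fold changes of -0.69 and -0.66. Both calls were lost whichever library was left out, with adjusted p-values of 0.0805 to 0.143 for F2rl1 and 0.0964 to 0.116 for Ackr3 in limma.

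**Figure D4:**
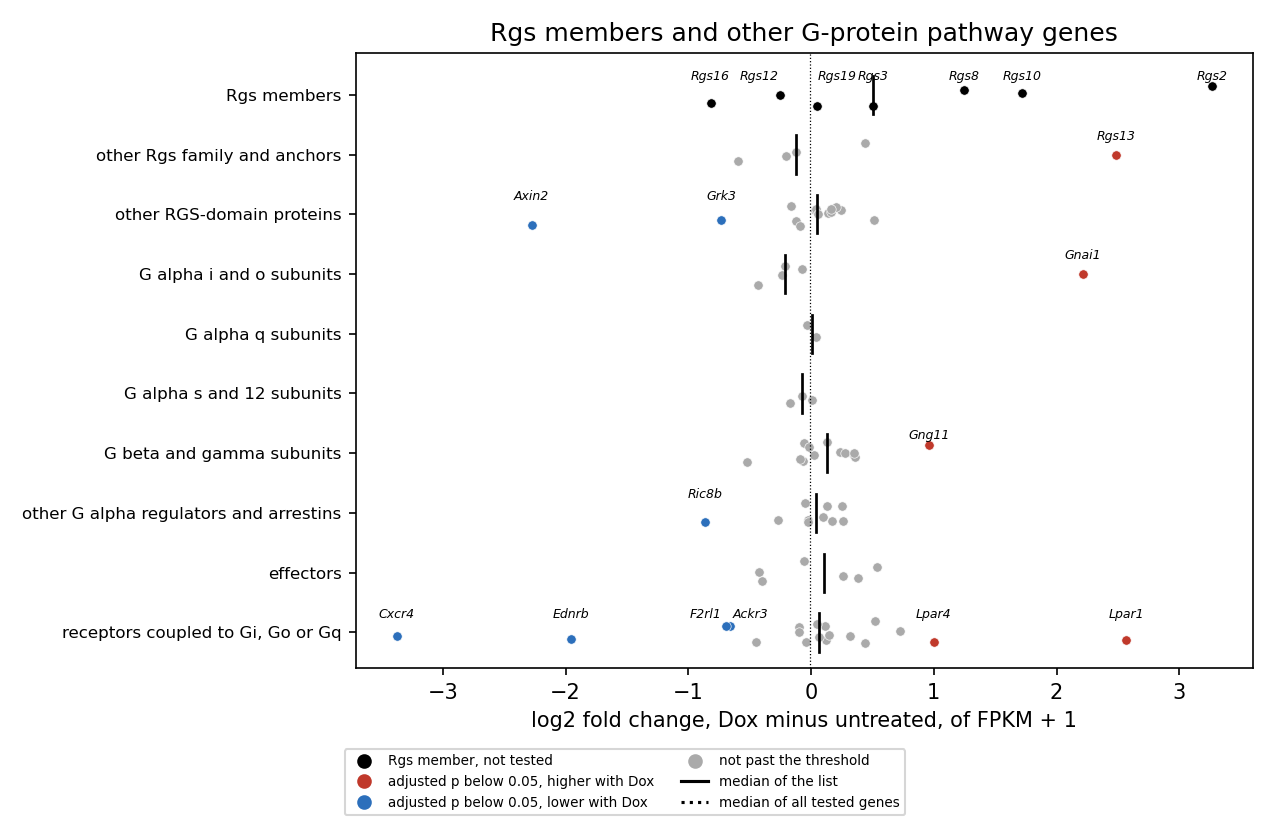
Log2 fold change of FPKM + 1 between Dox and untreated (horizontal axis) for each tested gene of the Rgs members and of 9 other lists (rows), with red and blue for genes past an adjusted p of 0.05 in limma, grey for the rest, black for the members, which are shown with no test, a line for each list's median and a dotted line at the median of all tested genes. Rgs2 lies furthest to the right at 3.26 and Cxcr4 furthest to the left at -3.37.

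Genes whose pattern over the 4 libraries was most like that of Rgs2 were sought by the Euclidean distance between log2(FPKM + 1) values centred on each gene's own mean. Predicted and pseudogene-like names were left out. Those reported here, all among the nearest 5, were Fgf15, a growth factor gene (distance 0.108), and Phlda1 (0.180). The others were the cyclic nucleotide phosphodiesterase gene Pde2a (0.201) and the melanosome enzyme gene Dct (0.217). Phlda1 also resembled Rgs2 in level, at 6.45 and 5.16 FPKM untreated and 61.54 and 70.25 FPKM with Dox. With 4 libraries in 2 groups, the distance mainly reflects the size of the difference between the groups.

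Markers of several cell types moved with the groups. Besides the retinal progenitor list, 5 of the 6 neuron markers passed the threshold, all of them lower with Dox. Dcx, too low on average to be tested, was at 1.19 and 1.25 FPKM untreated and at 0.13 and 0.11 FPKM with Dox. The 6 neuron markers summed to 147 to 149 FPKM untreated and 82.1 to 85.9 FPKM with Dox. Of the 5 neural crest markers 4 fell, Sox10 from 12.79 and 13.35 FPKM to 0.82 and 0.43 FPKM among them, and the list summed to 31.1 to 31.3 FPKM untreated and 9.48 to 10.1 FPKM with Dox. The 5 endothelial markers summed to 0.97 to 1.08 FPKM untreated and 15.2 to 19.5 FPKM with Dox, nearly all of it Kdr, while Pecam1, Cdh5, Tek and Cldn5 were below 1 FPKM in every library. Rax, Six6, Elavl3, Elavl4, Sox10, Foxd3 and Kdr had a mean above 1 FPKM only in the group where they were higher. The part of these shifts in the Rgs values was not tested. In bulk RNA, fewer cells of a type and less RNA per cell cannot be told apart.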

How the data were processed

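Poly(A) RNA of 4 organoid libraries was sequenced (paired-end, per the labels). The authors deposited FPKM values, 1 column per library, rounded to 2 decimals. The submitters' processing notes name STAR, Cuffdiff and the build mm10, with no role or version; the annotation release and strand setting are not given in the sources used here. Values were transformed to log2(FPKM + 1), and 13931 genes averaging 1 FPKM or more were fitted with limma 3.58.1 in R 4.3.3 (eBayes with an intensity trend, no covariate, two-sided), with Benjamini-Hochberg adjustment over all of them and a threshold of 0.05. Fold changes on this scale understate low genes. On simulated data with 200 of 13931 genes changed, 80% of 2-fold and 99% of 4-fold changes were recovered. These shares hold for the simulated data only, and recovery in the 4 organoid libraries was not tested.

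Depth was fitted from the steps of 1 fragment in low values of single-transcript genes, where 89.3% to 90.5% lay within 0.2 fragments of a whole number. Coordinates, exon overlaps and transcripts are from GENCODE M21 (GRCm38), promoters from RefSeq. All 10 members had a promoter entry.

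The members and lists were chosen with earlier results of these data known. Named were every member, every tested Rgs gene, up to 4 called genes per list by size, the most abundant tested gene of each list, and the genes nearest to Rgs2, up to the 5th; F2rl1, Ackr3, the neighbouring genes and single marker genes were named, and the motifs searched were picked, after values were seen. Alternatives were other pseudocounts, filters, scalings and variance settings, the replicate number as a block, and each library left out. Single genes that these rules would name are not reported here.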

Additional observations from a re-analysis of the deposited data

How the results depend on the processing

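Among the pathway genes outside the members, the 12 calls numbered 10 to 16 under the other settings with all libraries and fell to 6 only with a minimum mean of 5 FPKM, where 48 genes were tested. With 1 library left out they numbered 8 to 9, and all of these were among the 12. Over all genes, the 1297 calls became 745 with no filter on low values, from 27532 genes, and 821 with a minimum of 5 FPKM, from 10342 genes. Leaving out 1 library gave 593 to 697 calls; the lone library is then assumed to vary like the others. Rgs2, Rgs3, Rgs8, Rgs10 and Rgs16 kept their direction in every setting that held them. The log2 fold change of Rgs2 ranged from 2.67 to 3.45, that of Rgs10 from 0.97 to 2.12, that of Rgs8 from 0.57 to 1.76 and that of Rgs16 from -1.16 to -0.36, the ends set by a pseudocount of 5 or 0.1. Axin1, Gna11 and Gnas, none of them called, changed sign with 1 library left out, ranging from -0.067 to 0.139 for Axin1, from -0.045 to 0.131 for Gna11 and from -0.044 to 0.063 for Gnas. Grk3, Gng11, F2rl1 and Ackr3 also lost their calls with no filter. Without the intensity trend, Rgs20 and Rgs9bp passed, with adjusted p-values of 0.0324 and 0.0229 in limma, and Rgs9bp also with robust variances (0.0403). Of these, Rgs9bp reached the 1 FPKM mean only through its untreated libraries. A replicate block, fitted from the sample numbers, gave 1134 calls, 1062 of them among the 1297, and the 12 pathway calls stayed. The labels do not tie a number to a round of library making, and nothing shows that the numbers form pairs: differences between replicates 1 and 2 correlated across genes at -0.0435 between the groups. Differences at the level of Rgs4 and Rgs5 are limited by depth.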
